A study of Mus musculus with 2 samples.

Results

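Septum transversum-like mesenchyme was studied here as the cells that carried transcripts of both Colec10 and Wt1 in mouse embryos at embryonic day 9.5 (E9.5). Cells were selected on their own transcript counts, as those with at least 1 unique molecular identifier (UMI, 1 counted transcript molecule) of Colec10 and at least 1 of Wt1. Only cells in which 1000 genes or more were detected, and in which mitochondrial transcripts gave no more than 10% of the UMIs, were considered. The rule found 136 cells among the 16780 that passed both filters, of 17699 deposited. Since Colec10 and Wt1 chose the cells, their own levels are no finding. There were 2 libraries of sorted cells. In the library labelled Ctrl, the embryos carried Mesp1Cre and a ROSA26-GFP reporter with a floxed stop, so that GFP marks the descendants of early mesoderm in which the Mesp1 driver was active. In the library labelled cKO, the embryos also carried 2 floxed Tbx1 alleles, which the same driver is meant to inactivate. Both came from Swiss Webster embryos, whose pharyngeal apparatus and heart were dissected and whose live GFP-positive cells were sorted and run on a droplet instrument that reads transcript 3′ ends. With 1 library of pooled embryos per genotype there was no replicate check and no test between genotypes, so every comparison below describes these libraries and not the conditions.

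The septum transversum is the sheet of mesoderm that lies between the heart and the growing liver bud. Its mesenchyme is known to give rise to the supporting cells of the liver, to the proepicardium, from which the epicardium forms, and to part of the diaphragm. It also sends bone morphogenetic protein signals to the liver endoderm. Colec10 encodes a collectin, a secreted lectin that binds sugars on microbes and is made largely by the liver. Wt1 encodes a zinc-finger transcription factor of mesothelium, epicardium and the developing kidney and gonad. The other label markers were Barx1, a homeobox gene of stomach mesenchyme, and Nr1h5, which encodes a nuclear receptor of the farnesoid X receptor family.

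The selected cells numbered 67 in the library labelled Ctrl and 69 in the library labelled cKO. They had medians of 20438 and 16006 UMIs, against 17288.5 and 14665.5 in the other kept cells of each library. A count of 0 over all selected cells allowed a level of up to 1.93 CPM in Ctrl and 2.22 CPM in cKO, where CPM stands for the summed UMIs of a gene per 1000000 summed UMIs of the same cells. Intervals are at the 95% level and reflect counting error alone. By a doublet score that ranks cells by their likeness to simulated pairs, 12 of 67 (17.9%) and 9 of 69 (13.0%) selected cells were presumed doublets, against 5.94% and 8.23% of kept cells. The libraries shared 15 barcodes, none of them among the selected cells. Droplets holding cells of 2 types can meet a rule that asks for 2 genes, so values without the presumed doublets are given beside many of the ratios between the libraries.

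Colec10 and Wt1 cells made up 0.956% (0.742 to 1.21) of kept cells in Ctrl and 0.706% (0.550 to 0.893) in cKO. The intervals of the libraries overlapped. Cells with Colec10, whether or not they had Wt1, came to 209 of 7007 (2.98%) in Ctrl and 328 of 9773 (3.36%) in cKO, while cells with Wt1 came to 12.6% and 9.85%. Among Colec10 cells, 32.1% (25.8 to 38.8) also had a Wt1 UMI in Ctrl and 21.0% (16.8 to 25.9) in cKO. Among cells without Colec10, 12.0% and 9.47% had one. Both genes set the rule and their detection depends on depth, so these shares describe the selection and are no finding. After each cell was thinned to 5000 UMIs, 13 of 6934 cells in Ctrl (0.187%) and 15 of 9673 in cKO (0.155%) still met the rule. These were 13 of 77 (16.9%) and 15 of 125 (12.0%) of the thinned cells with Colec10. Cells were also split by Xist and Y-linked transcripts. Each library pooled 2 embryos, so that with both sexes present the Xist-only and the Y-linked-only cells of a library each come from a single embryo, and such values, here and below, compare single embryos and not the sexes. Cells with Y-linked transcripts and no Xist met the rule in 21 of 2723 cases (0.771%) in Ctrl and 9 of 2876 (0.313%, 0.143 to 0.593) in cKO, whereas cells with Xist and no Y-linked transcript met it in 37 of 3506 (1.06%) and 49 of 5390 (0.909%). The part of the dissection boundary in these shares was not tested, and the methods give somewhat later somite stages for the embryos labelled cKO, so that stage and genotype cannot be told apart.

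**Figure D1:**
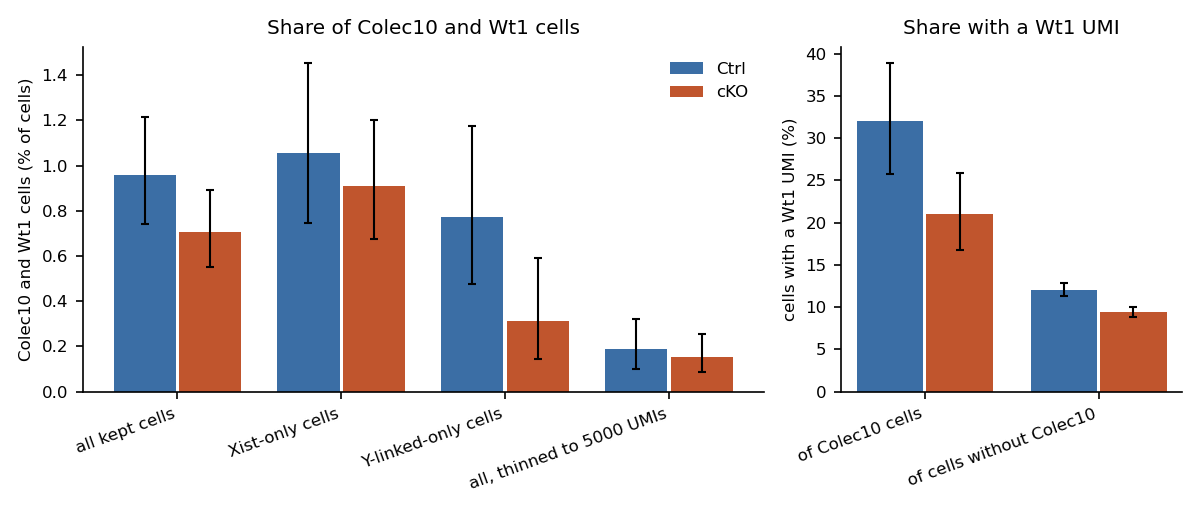
Left, the share of cells (%) that met the Colec10 and Wt1 rule in all kept cells, in cells with Xist only, in cells with Y-linked transcripts only and after thinning; right, the share (%) with a Wt1 UMI among cells with and without Colec10. Bars are the 2 libraries and lines are exact binomial 95% intervals; in the left panel the libraries stand furthest apart in Y-linked-only cells, at 0.771% in Ctrl and 0.313% in cKO.

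The other markers of the label, which the rule did not use, were read next. They were named with earlier results of these data known, so their levels are no independent check of the label. Barx1 stood at 247 CPM in the selected cells and 63.3 CPM in the other kept cells of Ctrl, and at 321 and 74.5 CPM in cKO. It was detected in 41 of 67 and 40 of 69 selected cells. Nr1h5 stood at 92.8 CPM against 3.17 CPM in Ctrl and at 27.4 against 12.2 CPM in cKO, and was detected in 34 and 21 selected cells. Both markers were thus higher in the selected cells than elsewhere in each library. By the GRCm38 gene table, Colec10 lies on chromosome 15 at 54410774 to 54466360, Wt1 on chromosome 2 at 105126529 to 105173614, Barx1 on chromosome 13 at 48663036 to 48666507 and Nr1h5 on chromosome 3 at 102939658 to 102964291.

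Cells just inside and just outside the rule were set side by side. The 17 Ctrl and 29 cKO cells with exactly 1 UMI of each gene had 344 and 465 CPM of Barx1 and 93.5 and 20.1 CPM of Nr1h5. The selected cells with more UMIs had 221 and 223 CPM of Barx1 and 92.6 and 32.3 CPM of Nr1h5. Cells with Colec10 but no Wt1 UMI, 142 and 259 in number, had more Barx1, at 635 and 442 CPM, and Nr1h5 at 31.2 and 21.2 CPM. Cells with Wt1 but no Colec10 UMI, 818 and 894 in number, had less of both, with Barx1 at 64.5 and 75.1 CPM and Nr1h5 at 12.4 and 13.7 CPM. Of these selections, Nr1h5 was thus highest in Ctrl where both genes were detected, while in cKO the levels lay closer together, and Barx1 was highest in both libraries where Colec10 was detected without Wt1, apart from the cKO cells with 1 UMI of each.

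The same levels were compared with cells chosen on markers of neighbouring tissues. Foregut mesenchyme-type cells, selected on Barx1 and Foxf1 without Colec10, had 11.1 and 16.3 CPM of Nr1h5, 32.7 and 41.4 CPM of Lhx2 and 11.5 and 17.3 CPM of Hand1 in Ctrl and cKO. Lhx2 encodes a LIM homeodomain factor of liver mesenchyme and Hand1 a helix-loop-helix factor of extraembryonic and lateral mesoderm, and the selected cells had 144 and 112 CPM of Lhx2 and 63.1 and 63.7 CPM of Hand1. Epicardium-type cells, selected on Upk3b and Tbx18 without Colec10, had 10.3 and 50.8 CPM of Barx1 and 8.32 and 7.30 CPM of Hlx, a homeobox gene needed for growth of the liver and gut. The selected cells had 57.3 and 52.6 CPM of Hlx. Upk3b, a uroplakin gene of mesothelium, stood at 34.2 and 43.0 CPM in the selected cells but at 3.19 and 6.58 CPM in cells with Colec10 alone. Tbx18, a T-box gene of epicardium and sinus venosus, was low in the selected cells, at 11.6 and 24.4 CPM, and at 90.4 and 81.1 CPM in cells with Wt1 alone. Barx1 of foregut mesenchyme and Upk3b of mesothelium were thus found in the same selection, with little Tbx18.

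**Figure D2:**
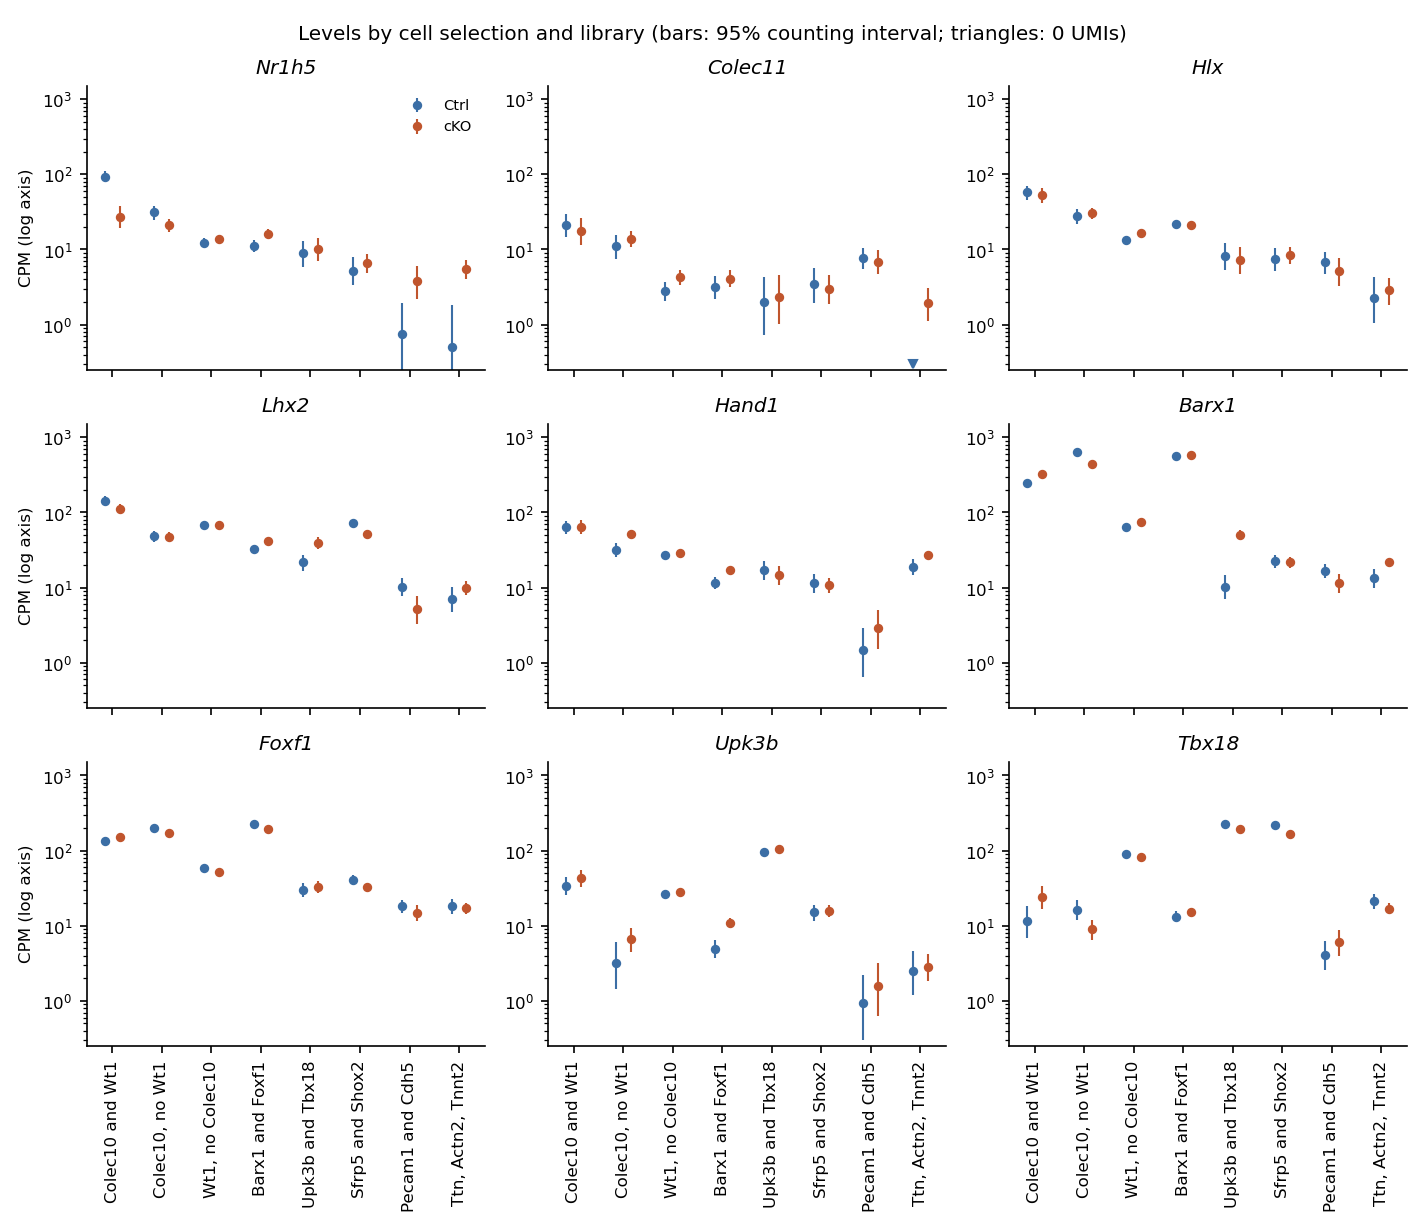
Levels (CPM, log axis) of 9 genes in the Colec10 and Wt1 cells and in 7 other selections of cells, named on the horizontal axis by the genes that chose them. Points are the 2 libraries, bars exact Poisson 95% intervals and triangles 0 UMIs. The genes that chose a selection are high in it by construction (Barx1 and Foxf1, Upk3b and Tbx18); Nr1h5 in Ctrl is highest in the Colec10 and Wt1 cells, at 92.8 CPM.

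Background shares were read in cell types that should lack these transcripts. In cells thinned to 5000 UMIs, Nr1h5 was detected in 34.3% (23.2 to 46.9) of the selected cells in Ctrl and 15.9% (8.24 to 26.7) in cKO. In endothelial cells, selected on Pecam1 and Cdh5 and with medians of 17875 and 15027.5 UMIs, it was detected in 0 of 263 and 4 of 253 (1.58%). Barx1 was detected in 38.8% and 49.3% of the thinned selected cells and in 1.14% and 0.791% of thinned endothelial cells. Hlx was detected in 26.9% and 31.9% of the selected cells, against 2.28% and 2.37% of endothelial cells. These markers were therefore above background in both libraries. Without thinning, Nr1h5 was detected in 50.7% and 30.4% of the selected cells and in 0.755% and 6.54% of endothelial cells.

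The cells of each library were then clustered without Colec10 and Wt1 among the features. Of 21 clusters in each library, 7 held selected cells, and a single cluster held 48 of 67 (71.6%) in Ctrl and 51 of 69 (73.9%) in cKO. That cluster had 215 and 441 cells, so that most of its cells did not meet the rule. In Ctrl its leading genes by fold were Nr1h5, at 109 CPM inside and 0.857 CPM outside, followed by Cobl, Dsg2, Phlda2 and Prnp. In cKO they were Cobl, Dsg2, Barx1, Hlx and Prnp. The remaining selected cells lay mostly in a cluster led by Sfrp5 and Shox2, genes of the sinus venosus, with 7 cells in Ctrl and 11 in cKO, and, in Ctrl, in a Barx1-led cluster with 7 cells. Lhx2 stood at 135 CPM in the whole cKO cluster of 928 cells led by Shox2 and Sfrp5, above its 112 CPM in the selected cells. Each library was clustered by itself, and the leading clusters need not be the same class of cells, since in Ctrl a separate cluster of 350 cells was led by Barx1, at 934 CPM, while in cKO Barx1 was among the leading genes of the leading cluster itself, at 490 CPM. Ratios between the libraries within these clusters thus compare separately made groups of cells. Among the 20 nearest neighbours of a selected cell, 16.6% in Ctrl and 11.4% in cKO were themselves selected, against 0.648% and 0.658% of the neighbours of other cells.

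Genes that set the selected cells apart from all other kept cells were sought next, at 2-fold or more in both libraries among 7558 genes with at least 10 CPM on the higher side of each. By this rule 127 genes (1.68%) were higher and 103 genes (1.36%) lower in the selected cells. Since the cells were chosen by their own transcripts these counts describe the selection and were not tested. A gene passed the filter if either the selected or the other cells reached 10 CPM in each library. Counts of list genes against other cells thus follow in part from the filter and support nothing by themselves. The 20 genes with the highest ratio in the weaker library were named, with no theme tested among them. Dsg2, the desmosomal cadherin desmoglein 2, stood at 74.7 against 10.1 CPM in Ctrl and 66.7 against 11.3 CPM in cKO. Cdh3, which encodes P-cadherin, stood at 53.5 against 14.3 CPM and 57.0 against 10.8 CPM. Ezr, which encodes the membrane linker ezrin, stood at 136 against 38.8 CPM and 149 against 38.8 CPM. Sdpr, a gene of caveolar membranes, stood at 85.1 against 14.4 CPM and 51.8 against 8.45 CPM. These 4 genes were above the other cells by at least 1.81 on the log2 scale in both libraries.

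Phlda2, an imprinted gene, stood at 80.5 CPM against 11.0 CPM in Ctrl and 64.4 against 12.0 CPM in cKO, and Plagl1, a zinc-finger gene, at 749 against 123 CPM and 424 against 97.4 CPM. Neither is particular to the selected cells, since both were also among the leading genes of the Sfrp5 and Shox2 cluster of Ctrl, at 54.1 CPM of Phlda2 and 628 CPM of Plagl1. Other leading genes were Prnp, Nrk, Shisa3, Itm2a, Hand1, Gata4, Hlx, Ifitm1, Hmcn1, Pmp22, Nrp1, Hoxa4 and Smim1, each between 1.59 and 2.72 on the log2 scale above the other cells in both libraries. Ifitm1 and Hoxa4 are not particular to the selected cells either. In the Barx1-led cluster of Ctrl they stood at 563 and 137 CPM, above the 247 and 114 CPM of the selected cells of Ctrl. The prion protein gene Prnp stood at 111 against 18.8 CPM and 104 against 20.1 CPM, and the kinase gene Nrk at 167 against 34.1 CPM and 166 against 30.8 CPM. On the lower side, Foxd1, a forkhead gene, stood at 21.9 CPM against 87.1 CPM in Ctrl and 18.5 against 91.9 CPM in cKO. Prrx1, a homeobox gene of connective tissue, stood at 24.5 against 119 CPM and 28.9 against 100.2 CPM, and the basement membrane collagen gene Col4a1 at 33.5 against 86.8 CPM and 28.9 against 68.1 CPM.

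**Figure D3:**
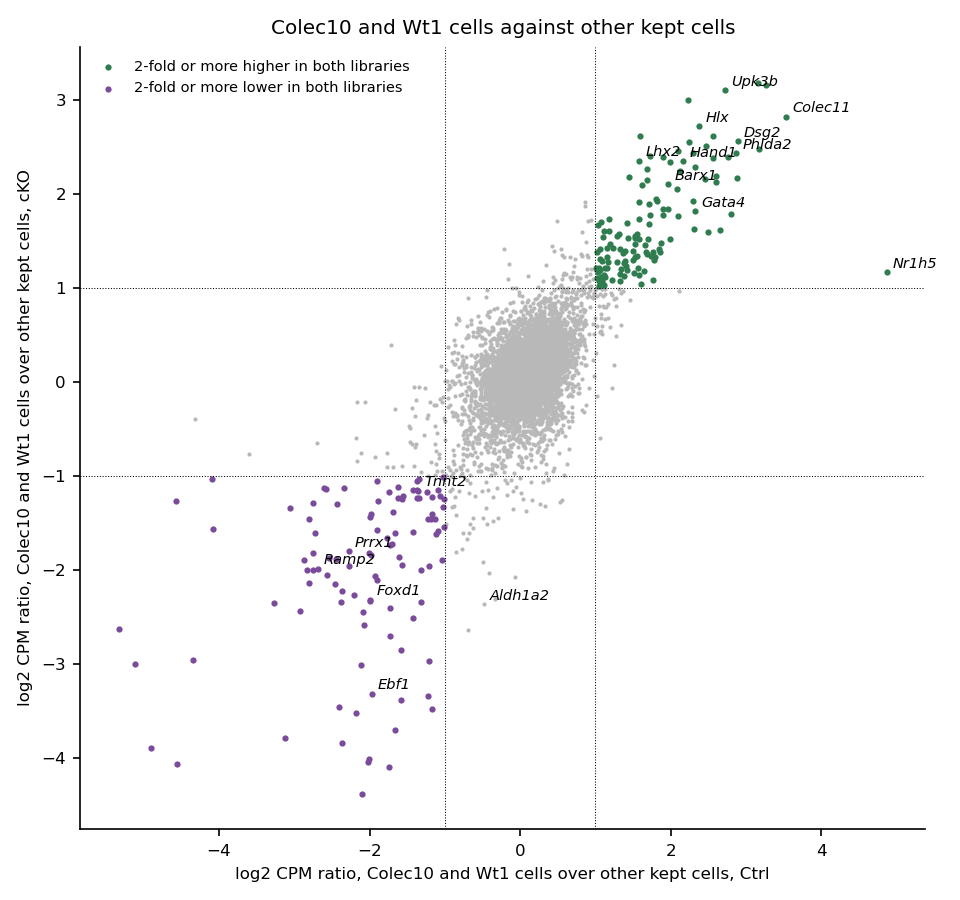
Log2 ratio of CPM in Colec10 and Wt1 cells over other kept cells, in Ctrl (horizontal) and in cKO (vertical), 1 point per gene with at least 10 CPM on the higher side in each library. Dotted lines mark 2-fold; 127 genes lie past them at the upper right and 103 at the lower left, and Nr1h5 stands off the diagonal, at 4.87 in Ctrl and 1.17 in cKO.

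Genes of septum transversum and liver mesenchyme were described as a list of 15, of which 13 passed the filter on low values. Of these, 7 were 2-fold or more higher in the selected cells of both libraries (Lhx2, Hlx, Hgf, Gata4, Gata6, Hand1 and Alcam) and 1 was lower (Vcam1), against 1.68% and 1.36% of all measured genes. The list had a median log2 ratio of 1.23 in Ctrl and 1.55 in cKO, against 0.06 and 0.07 over all measured genes. Gata4, a zinc-finger gene needed in this mesenchyme for growth of the liver, stood at 131 against 26.2 CPM in Ctrl and 84.4 against 23.9 CPM in cKO. Its relative Gata6 stood at 255 against 105 CPM and 268 against 91.7 CPM. Hgf, the hepatocyte growth factor gene, was low but higher than elsewhere, at 21.3 against 9.07 CPM and 12.6 against 4.68 CPM. Hgf passed the filter through the selected cells alone in both libraries, and Hlx did so in cKO. Alcam, an adhesion gene of septum transversum mesothelium, stood at 244 against 83.4 CPM and 199 against 66.8 CPM, and in cells with Wt1 alone at 286 and 234 CPM. It was higher still in the whole clusters led by Sfrp5 and Shox2, at 627 CPM in Ctrl and 427 CPM in cKO. The stellate cell markers Ngfr and Reln did not pass the filter, with at most 3.87 CPM in either library.

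Of 16 genes of epicardium and mesothelium, 10 passed the filter and 6 were 2-fold or more higher in both libraries (Sema3d, Bnc1, Upk3b, Krt8, Krt18 and Podxl), and none lower, beside 1.68% and 1.36% of all measured genes. Bnc1, a zinc-finger gene of mesothelial cells, stood at 39.3 against 7.10 CPM in Ctrl and 26.7 against 4.70 CPM in cKO. In both libraries Bnc1 passed the filter through the selected cells alone. Podxl, which encodes the surface sialomucin podocalyxin, stood at 67.0 against 22.8 CPM and 40.0 against 15.9 CPM. Tcf21, an epicardial helix-loop-helix gene, stood at 113 against 92.2 CPM and 92.6 against 54.9 CPM, and was not past 2-fold. Lrrn4, another mesothelial gene, stood at 23.2 against 6.92 CPM and 8.15 against 4.25 CPM, while Msln and Muc16 had 0 UMIs in the selected cells of both libraries.

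Among 15 genes of stomach and foregut mesenchyme, 8 passed the filter, of which Barx1 was higher and Tlx1 lower, where 1.68% and 1.36% of all measured genes were. Foxf1, a forkhead gene of mesoderm around the gut, stood at 134 against 76.4 CPM in Ctrl and 150 against 58.7 CPM in cKO. Among 10 genes of lung mesoderm and the posterior heart field, 7 passed the filter, none was higher and Tbx5 and Osr1 were lower. Tbx5, a T-box gene of the posterior heart field, stood at 17.4 against 37.8 CPM and 8.15 against 25.0 CPM. Of the 8 sinus venosus genes, 6 passed the filter, none was higher and Vsnl1 was lower. The shares over all measured genes, 1.68% higher and 1.36% lower, apply to these lists too.

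Collectins and their partners in the lectin pathway of complement were examined because Colec10 is part of the rule. Colec11, whose product joins that of Colec10 in mixed collectin complexes, was 2-fold or more higher in both libraries, at 21.3 against 1.84 CPM in Ctrl and 17.8 against 2.52 CPM in cKO. In each library it passed the filter through the selected cells alone. It was detected in 24 of 67 (35.8%) and 15 of 69 (21.7%) selected cells, and in 11.9% and 10.1% after thinning, against 3.80% and 3.95% of thinned endothelial cells. Cells with Colec10 alone had 11.0 and 13.8 CPM of Colec11. Of the 11 genes of the list besides Colec10, 3 passed the filter, and Colec12, a scavenger receptor collectin, stood at 40.6 against 47.5 CPM and 40.7 against 55.8 CPM. The complement proteases Masp1 and Masp2, which bind collectins, were at or under the limit that 3 counts set in each library, and 5 genes of the list, among them the mannose-binding lectin genes Mbl1 and Mbl2, had 0 UMIs in the selected cells.

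Of the other genes of the Nr1h family and its partners, none was past 2-fold in both libraries. Nr1h2, which encodes a liver X receptor, stood at 9.67 against 11.7 CPM in Ctrl and 7.41 against 12.3 CPM in cKO. Nr1h3 and Nr1h4, the genes of the other liver X receptor and of the farnesoid X receptor, had 0 UMIs in the selected cells of both libraries.

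Secreted signals and matrix genes were described in the same way. Of 24 signal genes, 21 passed the filter, Hgf was higher, and Wnt4, Wnt5a and Jag1 were lower, against 1.68% higher and 1.36% lower of all measured genes. Mdk, the midkine gene, was the most abundant of the list, at 2344 against 2192 CPM in Ctrl and 2491 against 2296 CPM in cKO. Bmp4, the bone morphogenetic protein gene, stood at 44.5 against 60.6 CPM and 28.1 against 44.2 CPM. Kitl, the stem cell factor gene, stood at 143 against 75.1 CPM and 156 against 70.0 CPM, and was past 2-fold in cKO alone. Of 24 matrix genes, 22 passed the filter, 3 were higher (Tnc, Postn and Dcn) and 2 lower (Col4a1 and Col4a2), against the same shares. Dcn, the decorin gene, stood at 39.9 against 10.1 CPM and 41.5 against 8.18 CPM. In Ctrl, 32 of the UMIs of Postn came from 1 cell.

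Hox genes mark position along the body axis. Of 24 Hox genes, 10 passed the filter, and Hoxa4 and Hoxc4 were 2-fold or more higher in both libraries, against 1.68% of all measured genes. Hoxa4 stood at 114 against 35.6 CPM in Ctrl and 151 against 31.5 CPM in cKO, and Hoxc4 at 38.0 against 16.7 CPM and 37.0 against 12.2 CPM. Foregut mesenchyme-type cells had 117 and 105 CPM of Hoxa4, and epicardium-type cells 43.6 and 43.5 CPM. Hoxb2, the most abundant Hox gene of the selected cells, stood at 146 against 111 CPM and 163 against 112 CPM. Hoxa9, Hoxb9, Hoxc6 and Hoxc8 had 0 UMIs in the selected cells of both libraries.

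Several markers of other cell types were low but not absent, while Egfl7 and Ets1 were not lower than in the other kept cells. The counts here stand against 1.68% higher and 1.36% lower of all measured genes. Of 8 endothelial genes, 4 passed the filter and 3 were lower, and Pecam1 and Cdh5, which define endothelium, had 0 or 1 UMI in each library, while Egfl7 stood at 71.5 against 69.4 CPM in Ctrl and 89.6 against 69.2 CPM in cKO. None of the 12 liver and gut endoderm genes passed the filter, and 6 had 0 UMIs, with Afp and Alb among them. Of 7 neural crest genes, 5 had 0 UMIs and only Ets1 passed, with log2 ratios over other cells of 0.74 in Ctrl and 0.36 in cKO. That list summed to 65.1 against 39.7 CPM in Ctrl and to 33.3 against 27.2 CPM in cKO. Of 6 paraxial mesoderm genes, 2 passed the filter and both were lower, with list sums of 39.9 CPM in Ctrl and 21.5 CPM in cKO. The 8 cardiomyocyte genes summed to 587 and 1112 CPM, against 1266 and 2033 CPM elsewhere. Myl7, an atrial myosin light chain gene, gave 285 and 545 CPM of these sums and was detected in 58 of 67 and 60 of 69 selected cells, against 17.7% and 26.9% of endothelial cells, and after thinning in 64.2% and 66.7% against 7.98% and 12.3%. Its level in other kept cells was higher, at 468 and 851 CPM. Tnnt2, a troponin gene of heart muscle, had 52 of 82 UMIs in 1 cell in Ctrl and 58 of 140 in cKO. Genes of the cell cycle showed no difference past 2-fold among 14 genes of S phase or 14 of G2/M, with summed levels of 1914 and 1994 CPM and of 3387 and 2880 CPM.

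The libraries were then compared within the selected cells, since the study compared embryos with and without floxed Tbx1 alleles. Tbx1 itself was low in the selected cells, at 6.44 CPM in Ctrl and 7.41 CPM in cKO, against 27.2 and 44.4 CPM in other kept cells. Over all selected cells it was thus not lower in the library labelled cKO, while among those of the leading cluster it had 7 UMIs in Ctrl and 0 in cKO. Transcript 3′ ends were counted, and whether these lie outside the deleted stretch is not given in the sources used here, so that the Tbx1 level checks neither label.

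Of 8133 genes with at least 10 CPM and 10 UMIs in the selected cells of a library, 118 (1.45%) were 2-fold or more higher in cKO and 351 (4.32%) 2-fold or more lower, with a counting interval that left out 0. The median log2 ratio over all measured genes was -0.12 in the selected cells and -0.12 in the other cells, and size factors by the median of ratios, which remove this shift, gave 180 higher and 228 lower genes. Most directions were shared with the rest of the library. Of the 118 higher genes, 100 had the same sign in the other kept cells and 22 were 2-fold or more higher there too. Of the 351 lower genes, 339 had the same sign and 28 were 2-fold or more lower there too. The share of like sign over all measured genes is not given here, and their median in the other cells was itself negative. The genes ranked first by the interval bound nearest 0 were of this kind. Ubb, a ubiquitin gene, stood at 103 CPM in Ctrl and 1123 CPM in cKO among the selected cells and at 103 and 907 CPM elsewhere, and Tpm3-rs7 at 187 and 6.67 CPM among them and 168 and 7.01 CPM elsewhere. Phgdh, a gene of serine synthesis, had log2 ratios of 1.73 in the selected and 1.42 in the other cells, and Atad2, a chromatin gene, of -1.33 and -0.99. Ratios of single genes over all selected cells are therefore given below beside those of the other kept cells. A gene passed the filter if either library reached it. Of the called list genes, Vsnl1, Dhrs3, Myh7 and Nppa reached it in cKO alone, where they are higher, and Lrrn4, Tbx5, Rdh10, Bmp5, Wnt5a, Jag1 and Tcf15 in Ctrl alone, so their place in the counts below follows in part from the filter and counts of list genes support nothing by themselves.

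**Figure D4:**
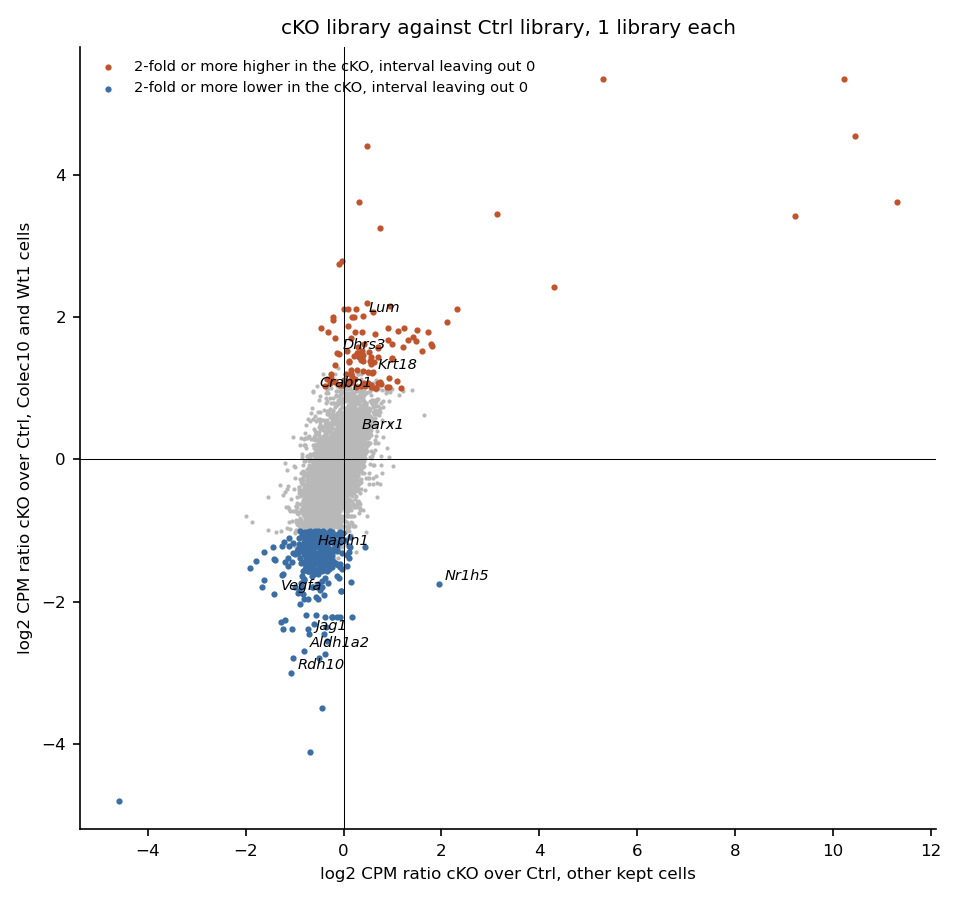
Log2 ratio of CPM in cKO over Ctrl for each measured gene, in other kept cells (horizontal) and in Colec10 and Wt1 cells (vertical), with genes past 2-fold in colour. Points near the diagonal have like ratios in both; Nr1h5 is at the lower right, at -1.76 in the Colec10 and Wt1 cells and 1.94 in the other cells.

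Nr1h5 had opposite directions in the selected cells and elsewhere. It stood at 92.8 CPM (144 UMIs in 34 cells) in Ctrl and at 27.4 CPM (37 UMIs in 21 cells) in cKO, a log2 ratio of -1.76 (-2.32 to -1.23), that is 3.39-fold lower in cKO. In the other kept cells the ratio was 1.94, from 3.17 to 12.2 CPM. No single cell carried the level, with at most 14 UMIs of Nr1h5 in 1 Ctrl cell and 5 in 1 cKO cell. The ratio was -1.52 in Xist-only cells, where the levels were 103 and 35.9 CPM, and Nr1h5 had 0 UMIs in the 9 Y-linked-only cells of cKO. Without presumed doublets it was -1.90. In all cells of the cluster that held most selected cells, where Nr1h5 itself was among the genes clustered, it stood at 109 and 29.5 CPM, for a log2 ratio of -1.88 (-2.13 to -1.64), between 215 Ctrl and 441 cKO cells of clusters that were made separately and had different leading genes. Cells with Colec10 alone had 31.2 and 21.2 CPM. In cKO a low level of Nr1h5 was spread over unrelated cells, with 3.79 CPM in endothelial cells and 5.46 CPM in cardiomyocytes, against 0.746 and 0.504 CPM in Ctrl.

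Genes of retinoic acid metabolism were described next, since mesothelium and the posterior mesoderm make this signal. Of 16 genes, 8 passed the filter, of which Dhrs3 was higher and Aldh1a2, Rdh10 and Rara were lower in cKO, against 1.45% and 4.32% of all measured genes, with Dhrs3 past the filter through cKO and Rdh10 through Ctrl alone. Aldh1a2, the gene of the main embryonic enzyme that makes retinoic acid, stood at 67.0 CPM in Ctrl but 10.4 CPM in cKO, with a log2 ratio of -2.69 (-3.61 to -1.88), and -0.81 in other kept cells. Only 16 selected cells in Ctrl and 7 in cKO had a UMI of it, and 1 Ctrl cell held 30 of 104 UMIs. Without presumed doublets the ratio was -1.35, on 13 and 5 UMIs, and in all cells of the leading cluster -1.36 (-1.81 to -0.91). Rdh10, the gene of the enzyme that makes retinal, had levels of 23.8 and 2.96 CPM, for a log2 ratio of -3.01, and -1.07 in other cells. A single Ctrl cell held 19 of its 37 UMIs, and the ratio was -1.29 without presumed doublets, on 5 and 2 UMIs. Dhrs3, the gene of a reductase that turns retinal back to retinol, had 11 UMIs in Ctrl and 27 in cKO, a 2.82-fold higher level, and a log2 ratio of -0.14 in other cells. Crabp1 and Crabp2, genes of retinoic acid binding proteins, stood at 39.3 and 56.1 CPM in Ctrl and at 76.3 and 85.2 CPM in cKO, log2 ratios of 0.96 and 0.60, against -0.63 and -0.19 elsewhere. Among the selected cells of the leading cluster the ratios were 0.046 for Crabp1 and -0.043 for Crabp2, and without presumed doublets that of Crabp1 was 0.45.

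Of the epicardium and mesothelium genes, 10 were measured, 3 were higher in cKO (Krt8, Krt18 and Tbx18) and 2 lower (Aldh1a2 and Lrrn4), where 1.45% and 4.32% of all measured genes were, and Lrrn4 passed the filter through Ctrl alone. Krt8 and Krt18, the pair of keratins of simple epithelia, had 150 and 175 UMIs in Ctrl and 270 and 352 UMIs in cKO. Their log2 ratios of level were 1.05 (0.76 to 1.35) and 1.21 (0.94 to 1.48), against 0.57 for each in other kept cells, and 1.11 and 1.52 in all cells of the leading cluster, and without presumed doublets 1.003 and 1.32. Tbx18 had a ratio of 1.08 over all selected cells and -0.28 in other cells, but -3.70 over those in the leading cluster, where it had 15 UMIs in Ctrl and 1 in cKO. The Shox2 ratio likewise changed sign, from 1.02, against 0.26 in other cells, to -0.89 (-2.43 to 0.49). Without presumed doublets the ratios were 0.41 for Tbx18 and 0.37 for Shox2. The ratios of both were thus positive over all selected cells and negative over those in that cluster, for Shox2 with an interval there that held 0. Wt1, part of the rule, stood at 96.0 and 71.8 CPM in the selected cells and at 70.9 and 32.3 CPM in all cells of the leading cluster.

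The matrix gene Lum, which encodes the proteoglycan lumican, stood at 23.2 CPM in Ctrl and 94.1 CPM in cKO, a log2 ratio of 2.02 (1.48 to 2.60), and 0.39 in other kept cells. It was detected in 12 and 24 selected cells, and without presumed doublets the ratio was 2.06. The direction held in Xist-only cells, at 3.52, but turned in Y-linked-only cells, at -0.35 with 24 and 7 UMIs. It also turned in cells with 2 or more UMIs of each rule gene, at -2.03 with 18 and 2 UMIs. In the whole leading cluster Lum stood at 16.6 and 43.4 CPM, for a log2 ratio of 1.39. Of 23 measured matrix genes Lum was the only one past 2-fold higher, and Hapln1, which encodes a hyaluronan link protein, and Npnt, which encodes nephronectin, were lower, at -1.26 and -1.29 against -0.66 and -0.22 elsewhere. Of all measured genes 1.45% were higher and 4.32% lower. The list had a median of -0.21, against -0.12 over all measured genes.

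Of the 21 measured signal genes none was higher and 4 were lower in cKO (Bmp5, Wnt5a, Vegfa and Jag1), against 1.45% and 4.32% of all measured genes, and all of these but Vegfa passed the filter through Ctrl alone. Vegfa, the vascular growth factor gene, stood at 58.0 and 15.6 CPM, for a log2 ratio of -1.90, and -1.41 in other cells. Wnt5a stood at 18.0 and 5.18 CPM, and its ratio of -1.80, against -1.66 in other cells, turned to 0.61 without presumed doublets, on 2 and 3 UMIs. Jag1, a Notch ligand gene, had a ratio of -2.46, against -0.71 in other cells, with 9 of 19 Ctrl UMIs in 1 cell. None of the 12 measured genes of septum transversum and liver mesenchyme was past 2-fold in either direction, and their median was -0.33 against -0.39 in other cells. Barx1 had a ratio of 0.37 (0.17 to 0.58), against 0.24 in other cells, which was -0.26 in Xist-only cells and 1.67 in Y-linked-only cells, 0.13 without presumed doublets, 0.89 after thinning and 2.56 in cells with 2 or more UMIs of each rule gene. Among the selected cells of the leading cluster it was 1.11, which leaves out the 7 Ctrl cells of the separate Barx1-led cluster, whereas in cKO Barx1 helped to lead that cluster. Sox9, an HMG-box gene of cushion and cartilage precursors, had 78 UMIs in Ctrl and 27 in cKO, a log2 ratio of level of -1.33 (-2.02 to -0.68), against -0.81 elsewhere, and -1.61 in all cells of the leading cluster. Without presumed doublets the Sox9 ratio was -0.87, on 28 and 15 UMIs, which is not past 2-fold.

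**Figure D5:**
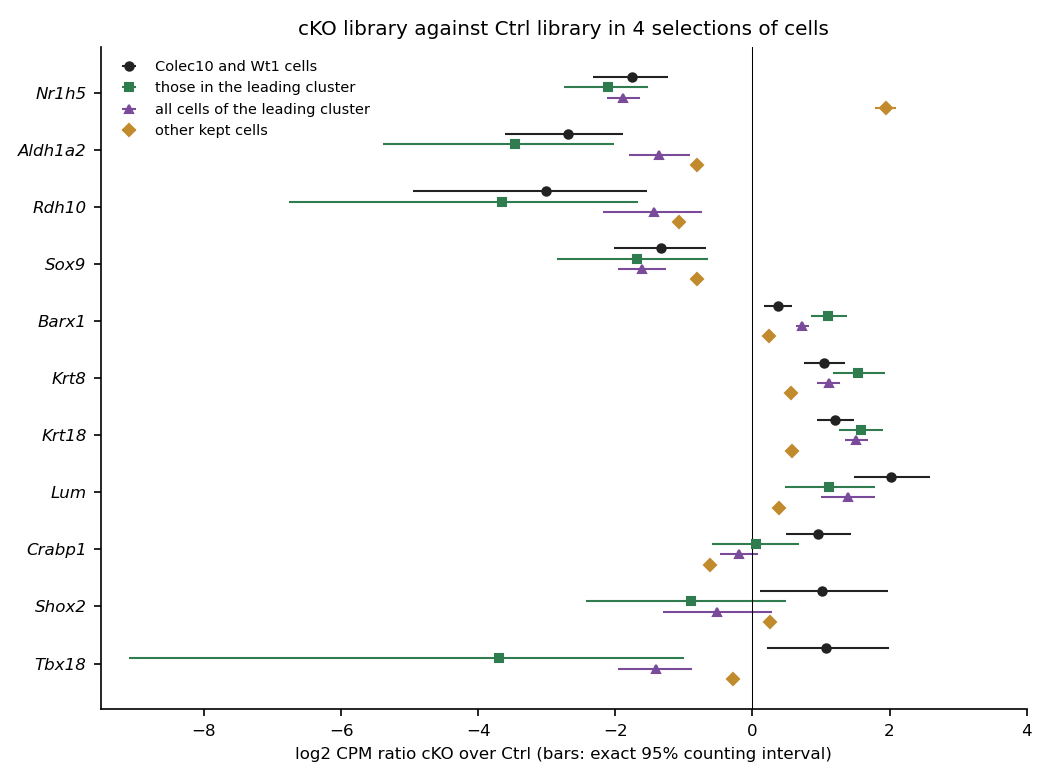
Log2 ratio of CPM in cKO over Ctrl for 11 genes in the Colec10 and Wt1 cells, in those of them within the cluster that held most, in all cells of that cluster and in other kept cells. Bars are exact 95% counting intervals. Nr1h5 lies between -2.11 and -1.76 in the first 3 selections and at 1.94 in the other cells, while Tbx18 and Shox2 change sign between the first and the second.

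The remaining lists held few genes past 2-fold between the libraries. Of 17 genes that the study discusses, some of them chosen by it on these samples, 10 passed the filter against other cells, with Lhx2 higher and Wnt5a and Tbx1 lower, where 1.68% and 1.36% of all measured genes were, and 9 were measured between the libraries, with Wnt5a and Sox9 lower in cKO. None of the 8 measured retinoic acid genes was past 2-fold against other cells in both libraries. Between the libraries, where 1.45% of all measured genes were higher and 4.32% lower, Shox2, Tbx18 and Vsnl1 were higher among 6 sinus venosus genes. The ratios of Shox2 and Tbx18 changed sign among the selected cells of the leading cluster, that of Shox2 with an interval that held 0. Vsnl1, with 4 UMIs in Ctrl and 16 in cKO, passed the filter through cKO alone. Tbx5 was lower among 7 genes of lung mesoderm and the posterior heart field, Hoxb3 lower among 11 Hox genes and Tcf15 lower among 2 paraxial mesoderm genes. No gene past 2-fold was found among 7 stomach and foregut genes, 3 collectin genes, 2 endothelial genes, 1 neural crest gene, 14 genes of S phase or 14 of G2/M.

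Of 7 measured cardiomyocyte genes 2 were 2-fold or more higher in cKO among the selected cells (Myh7 and Nppa, both past the filter through cKO alone), against 1.45% of all measured genes, as was Actc1, and most of their UMIs came from few cells. Actc1, the cardiac actin gene, stood at 82.5 and 368 CPM, for a log2 ratio of 2.16, and 0.94 in other kept cells. A single cell held 120 of 128 UMIs in Ctrl and 320 of 497 in cKO, and without these cells the ratio was 4.68, on 8 and 177 UMIs. Without presumed doublets it was 1.61, on 5 and 15 UMIs. Tnnc1, a troponin gene, had 23 of 25 and 41 of 78 UMIs in 1 cell, with a ratio of 1.84 over all selected cells and 0.91 in other cells, 4.42 without these cells and 1.03 without presumed doublets, and Nppa, a natriuretic peptide gene, all but 1 of its 37 cKO UMIs in 1 cell. Among the selected cells of the leading cluster the Actc1 ratio was 0.79, and the direction of Actc1 and Tnnc1 turned in Y-linked-only cells, at -3.18 and -3.10. The part of heart muscle cells caught in the same droplets in these values was not tested.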

How the data were processed

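The deposited matrices hold raw counts of UMIs per gene and cell barcode for 27998 genes. Per the labels and the submitters' processing notes, the authors aligned reads to mm10 and counted UMIs with Cell Ranger 3.1.0. No normalization was applied by the authors to these files. The members and the gene lists were chosen with earlier results of these data known. Cells were filtered as stated in the report, and UMIs were summed over selected cells per library. Exact Poisson intervals were used for CPM, exact conditional intervals for ratios and Clopper-Pearson intervals for shares, all at 95%. A count of 0 was set at a floor of 3 counts. No test was made, since each group had 1 library. Doublets were ranked with Scrublet in scanpy 1.11.5 and presumed at 0.8% per 1000 recovered cells, because the automatic threshold called very few cells in Ctrl, and none were removed in the main values. Clustering was done per library with 2000 variable genes, 30 principal components, 20 neighbours and the Leiden method at resolution 1. Genes of the rule, sex-linked, mitochondrial, ribosomal protein and haemoglobin genes were left out of the features. Thinning drew 5000 UMIs per cell and left out 73 and 100 shallower kept cells. Genes were named when on one of 20 lists, among the 20 highest and 10 lowest ratios of selected over other cells (ranked by the weaker library, at 50 CPM or more), or among the 15 highest and 15 lowest ratios of cKO over Ctrl (ranked by the interval bound nearest 0, at 50 CPM and 30 UMIs or more), passing over the genes of the rule and sex-linked, mitochondrial, ribosomal protein, haemoglobin and unnamed genes. The ratio and its interval were tested on simulated data. Single cells are not replicates and were not treated as such. Coordinates came from a RefSeq table of GRCm38.p6, the build that mm10 denotes, and the genome of another build was not used here.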

Additional observations from a re-analysis of the deposited data

Results flagged for a closer look

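For 10 named genes the log2 ratio of cKO over Ctrl had opposite signs in the Colec10 and Wt1 cells and in the other kept cells, in each case with a counting interval that left out 0, and the difference itself was not tested, since each label has 1 library. Nr1h5 had -1.76 in the selected cells and 1.94 elsewhere. Tbx18 had 1.08 and -0.28, Crabp1 0.96 and -0.63, Crabp2 0.60 and -0.19, and Myh7 2.75 and -0.087. Mab21l2 had 0.58 and -0.23, Hoxa4 0.41 and -0.18, Dlk1 -0.20 and 0.41, Itm2a -0.23 and 0.18, and Ube2c -0.24 and 0.14. Among the selected cells of the leading cluster the ratio was -3.70 for Tbx18, -0.043 for Crabp2, 0.014 for Ube2c and 0.046 for Crabp1, and 0.21 for Myh7, while it was -2.11 for Nr1h5, 0.50 for Mab21l2, 0.52 for Hoxa4, -0.54 for Dlk1 and -0.46 for Itm2a.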

How the results depend on the processing

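No paired analysis was possible because each label has 1 library and no result came from a test. Asking for 2 or more UMIs of each gene left 11 and 7 cells, with shares of 0.157% in Ctrl and 0.0716% in cKO. The shares were 0.187% and 0.155% after thinning and 0.685% and 0.522% for the leading cluster alone, an alternative chosen after seeing the data, and in cKO 0.909% in Xist-only and 0.313% in Y-linked-only cells. Against other kept cells, 127 higher genes became 448 after thinning, 52 at 50 CPM, 456 with no filter and 281 at 1.5-fold, and 103 lower genes became 17 at 50 CPM, 272 with no filter, 193 at 1.5-fold and 159 without presumed doublets. For cKO over Ctrl, 118 higher genes became 51 after thinning, 180 with median-of-ratios size factors, 24 at 50 CPM and 291 at 1.5-fold, and 351 lower genes became 178 with 2 UMIs of each, 49, 228, 46 and 885. Directions turned for Acta2 (-0.18 with 2 UMIs of each, -0.76 in Y-linked-only cells), Lum (-2.03 and -0.35), and, in Y-linked-only cells, Actc1 (-3.18), Tnnc1 (-3.10), Npnt (0.62) and Rara (0.16). Shox2 turned after thinning (-0.21), in Y-linked-only cells (-0.16) and in the leading cluster (-0.89), Tbx18 likewise (-0.21, -1.16 and -3.70), Spred1 after thinning (0.53) and Wnt5a without presumed doublets (0.61). After thinning Shox2 and Tbx18 each had 1 UMI per library. In Y-linked-only cells Shox2 had 3 UMIs in Ctrl and 1 in cKO, and Tbx18 had 6 and 1. The leading-cluster interval of Shox2, -2.43 to 0.49, held 0. The cause was not tested. Of 47 named genes past 2-fold, all kept their sign under stricter cell filters, another averaging over cells and other totals. At this depth a gene with 0 UMIs may stand at up to 1.93 or 2.22 CPM.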
